A study of Zea mays with 18 samples.

Results

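Among the features counted in maize endosperm, 175 carry identifiers of the mitochondrial genome, and 104 of these, of 46430 features in all, are described here. They were chosen by their counts, as the mitochondrial features with 10 or more in at least 3 of the 18 libraries. Another 17 features of the electron transport chain, the ATP synthase and cytochrome c maturation (ccm) were left out by identifier. A further 54 mitochondrial features lay under the threshold. The members are 83 numbered open reading frames (orf), 8 proteins of the small and 1 of the large ribosomal subunit, the maturase mat-r, and 8 copies of plastid sequence with symbols ending in -ct. The remaining 3 are cox2, atp6 and nad6, respiratory genes whose identifiers were not on the list of those left out. The label of remaining protein and reading frame features therefore holds with those 3 as an exception, and 11 members are pseudogenes in the RefSeq annotation. At the edge of the rule, 11 members reached 10 counts in exactly 3 libraries, with totals of 54 to 1377 counts over the 18 libraries. The 6 features that reached 10 counts in 2 libraries only had totals of 65 to 512.

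Plant mitochondria keep a genome of their own, which encodes core subunits of the respiratory complexes, some proteins of the mitochondrial ribosome and a maturase, while most mitochondrial proteins are imported from the nucleus. Proteins named rps belong to the small ribosomal subunit, which reads the messenger RNA, and those named rpl to the large subunit, where peptide bonds form. Plant mitochondrial genomes also hold many predicted reading frames without known function, and stretches copied from the plastid genome. Transcription in plant mitochondria runs well beyond genes and is followed by extensive processing of the RNA, so that reads over a predicted reading frame do not show that it is translated.

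The libraries come from maize (Zea mays) endosperm of the inbred line W22, cut by laser microdissection 19 days after self-pollination of field-grown plants. The aleurone, the outermost cell layer of the endosperm, and the starchy endosperm beneath it, which stores starch, were captured from each of the genotypes R1-sc, r1-m3 and R1-g. Of these, R1-g is the wild type according to the series design, and all genotypes share the W22 background. R1 encodes a transcription factor that switches on anthocyanin pigment. Each combination of compartment and genotype has 3 libraries, called biological replicates in the series design, and the labels do not say which plants or kernels they came from. The p-values therefore measure the spread between these libraries.

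Counts on features ranged from 12.5 to 20.4 M per library (M, 1000000 counts), and reads that aligned to several places, 42.2% to 55.0% of the table totals, were given to no feature. Replicate 3 of r1-m3 aleurone did not vary as a separate library. It held all 490 features that were split between replicates 1 and 2, with 200 or more counts in one and 0 in the other, where the libraries of R1-sc and R1-g aleurone held 54.3% to 69.4% of such features, and for 81 of 100 members its level lay between theirs. It is left out of all values below, which leaves 8 aleurone and 9 starchy endosperm libraries, and counts with it are given beside the results they change. Symbols could be matched to the mitochondrial features but not to the nuclear gene models, so markers of the aleurone and the starchy endosperm were not checked here.

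The members took a larger share of the counts in the aleurone. Their share of all feature counts was 1.25 ± 0.161% in the aleurone (SD, n = 8, range 1.09% to 1.56%), against 0.412 ± 0.0810% in the starchy endosperm (SD, n = 9, range 0.306% to 0.513%), and the compartments did not overlap. Mitochondrial ribosomal RNA took 21.4 ± 3.51% of the counts in the aleurone, against 9.69 ± 1.29% in the starchy endosperm, and the 17 mitochondrial genes left out by the rule took 0.656 ± 0.0620% and 0.198 ± 0.0338% in the same order. In such bulk samples fewer mitochondria, fewer cells of a type and less RNA per cell cannot be told apart. Of the 104 members, 73 to 91 had 10 or more counts in an aleurone library and 45 to 55 in a starchy endosperm library. At 0 counts were 2 to 15 members per aleurone library and 30 to 42 per starchy endosperm library. For 25 members, every one of the 17 libraries with 10 or more counts was an aleurone library, so the rule itself drew those members from the compartment where they are higher. No member (0 of 104) passed through starchy endosperm libraries alone. Feature totals averaged 15.5 ± 1.12 M in the aleurone, against 15.3 ± 1.72 M in the starchy endosperm.

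**Figure D1:**
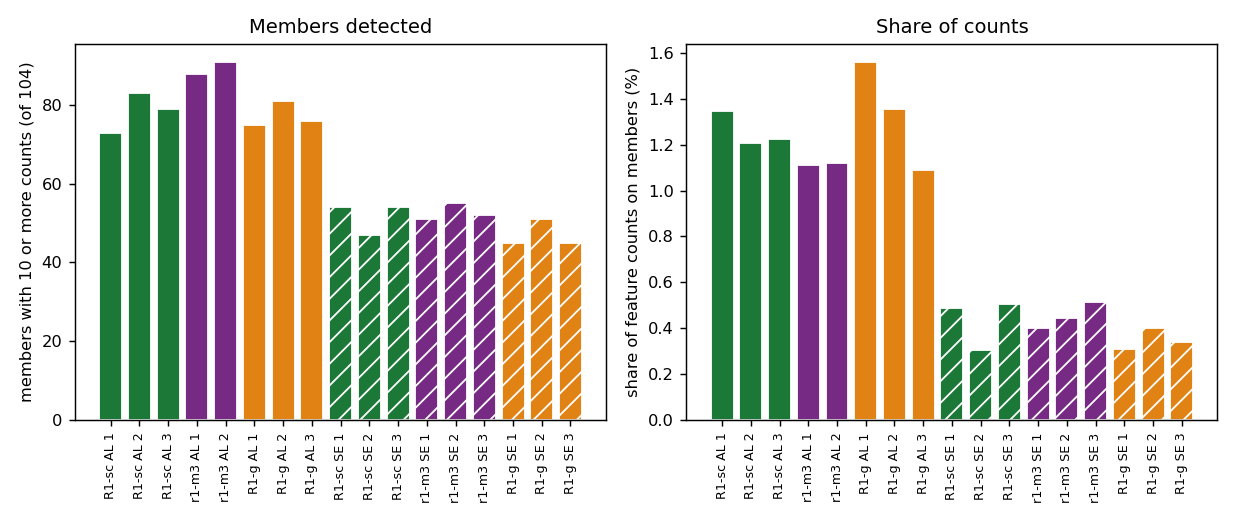
Members with 10 or more counts, of 104 (left), and the share of feature counts on members in percent (right), 1 bar per library; plain bars are aleurone (AL) and hatched bars starchy endosperm (SE), coloured by genotype. Aleurone libraries hold 73 to 91 such members and starchy endosperm libraries 45 to 55.

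Levels were concentrated in few members. The 4 members orf99-d, rps1, orf1159 and rps7 together held 65.0 ± 3.65% of the members' counts in the 8 aleurone libraries, against 74.9 ± 2.55% in the 9 starchy endosperm libraries (SD). Per kilobase of gene, orf99-d was the highest member in both compartments, with a mean of 7613 counts per 1000000 (CPM) per kb in the aleurone, against 5916 CPM per kb in the starchy endosperm. Next came rps1, with 3616 CPM per kb in the aleurone, against 1750 CPM per kb in the starchy endosperm, and rps7, with 2016 CPM per kb in the aleurone, against 706 CPM per kb in the starchy endosperm. All CPM values are scaled by TMM factors (trimmed mean of M-values, a scaling that centres the bulk of the features). Among the 42 members with a mean of 10 CPM or more, the coefficient of variation between libraries had a median of 50.9% in the aleurone, against 59.0% in the starchy endosperm. Among the 59 members under 10 CPM it was 125% in the aleurone, against 156% in the starchy endosperm. A single library held over 50% of a member's summed aleurone level for 20 of those 59 members, and for 2 of the 42 more abundant ones.

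Between compartments, 42 of the 101 members tested were higher in the aleurone and 3 were lower, while 56 did not pass the test (edgeR quasi-likelihood F test on the mean over the 3 genotypes, Benjamini-Hochberg adjusted p under 0.05 over all features). Over all 18028 features tested, 21.9% were called higher in the aleurone and 13.7% lower, against 41.6% and 2.97% of the members in the same order. The median log2 fold change, aleurone minus starchy endosperm, was 2.46 over the members and 0.588 over all features. Because the rule drew on aleurone counts, these figures describe the members and support no statement on mitochondrial features at large. Of the 22 tested members whose libraries with 10 or more counts were all aleurone, 15 were called higher and 0 lower. Of the 79 with 10 or more counts in at least 1 starchy endosperm library, 27 were called higher and 3 lower, with a median log2 fold change of 1.93. The number called was 28 higher and 1 lower without r1-m3 aleurone replicate 2, and 51 higher and 3 lower with all 18 libraries. In this contrast edgeR held no information on orf105-a and on one of the features named orf130, for which a whole group was at 0 counts in both compartments.

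**Figure D2:**
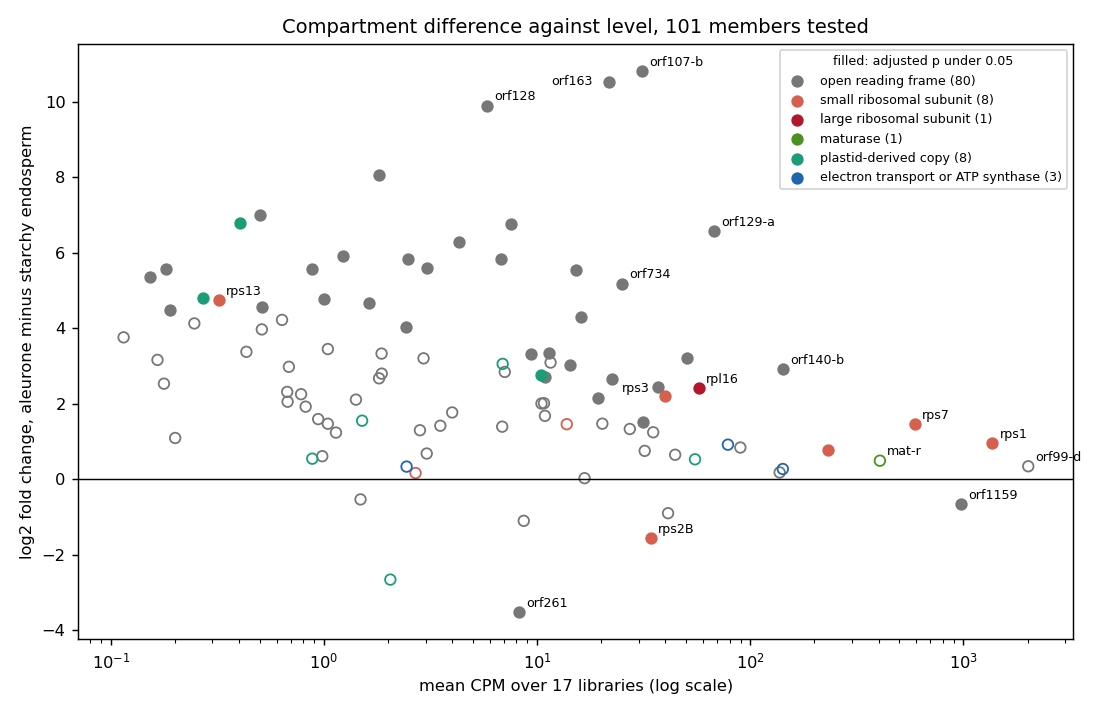
Log2 fold change, aleurone minus starchy endosperm (vertical axis), against mean CPM over 17 libraries (horizontal axis, log scale) for the 101 members tested; filled points have an adjusted p under 0.05 and colours mark the kind of member. Of the 101 points, 94 lie above 0, and the largest differences belong to reading frames while ribosomal protein genes at high levels lie nearer to 0.

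An exact permutation of the compartment labels within genotypes, on log2(CPM + 1) and over 4000 relabellings, was run on every feature as a test without a count model. It put 52 members higher and 4 lower in the aleurone (two-sided, adjusted p under 0.05 over all features), against 19.9% of all features higher and 14.7% lower. The 4 were orf1159, orf134-a-ct, orf261 and rps2B. Both tests called 35 of the 45 members that edgeR called. Members that entered through aleurone libraries alone, orf107-b and orf128 among them, are included. The rule therefore bears on these counts too, and the overlap of the tests supports nothing further. The smallest adjusted p that the relabellings allow is 0.0024, which 21 members reached.

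Of the 8 genes of small-subunit proteins tested, rps1, rps3, rps7, rps12 and rps13 were called higher, rps2B was called lower, and rps4 and rps2A did not pass the test, where 21.9% of all features were called higher and 13.7% lower. Relative to the 17 mitochondrial features left out by the rule, rps7 and rps13 alone were called higher and rps2B lower. The median log2 fold change of the 8 was 1.21. The most abundant of them was rps1. In the aleurone it stood at 2072, 1837 and 2471 CPM in R1-sc, at 1119 and 1397 CPM in r1-m3 and at 2044, 2036 and 2039 CPM in R1-g. In the starchy endosperm it stood at 1069, 727 and 1161 CPM in R1-sc, at 856, 975 and 848 CPM in r1-m3 and at 705, 1001 and 830 CPM in R1-g. The lowest aleurone library, r1-m3 replicate 1 at 1119 CPM, lay below R1-sc starchy endosperm replicate 3 at 1161 CPM, and the other aleurone libraries lay above all of the starchy endosperm. Its mean was 1877 ± 427 CPM in the aleurone, against 908 ± 154 CPM in the starchy endosperm, and its log2 fold change was 0.96 (SE 0.20, edgeR adjusted p = 0.000532, permutation adjusted p = 0.0024).

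The gene rps7 separated the compartments fully. Aleurone levels were 1252, 1011 and 1075 CPM in R1-sc, 739 and 660.0 CPM in r1-m3 and 1125, 868 and 479.9 CPM in R1-g. Starchy endosperm levels were 348, 228 and 391 CPM in R1-sc, 300.0, 319 and 417 CPM in r1-m3 and 302, 299 and 235 CPM in R1-g. Every aleurone library was above every starchy endosperm library. Its log2 fold change was 1.46 (SE 0.24, edgeR adjusted p = 4.41e-05), from means of 901 ± 262 CPM in the aleurone and 315 ± 63.0 CPM in the starchy endosperm.

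For rps3, the aleurone libraries held 56.4, 77.8 and 54.9 CPM in R1-sc, 53.0 and 105 CPM in r1-m3 and 101, 36.8 and 46.1 CPM in R1-g. The starchy endosperm libraries held 9.01, 27.0 and 20.4 CPM in R1-sc, 18.8, 22.4 and 22.4 CPM in r1-m3 and 6.28, 8.14 and 8.91 CPM in R1-g. The compartments did not overlap, and R1-g starchy endosperm held the 3 lowest values. The log2 fold change was 2.21 (SE 0.51, edgeR adjusted p = 0.0018). Its span of 3522 bases in the annotation includes an intron, so levels per kb understate it.

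The other small-subunit members lay at very different levels. In rps12 the aleurone ranged from 173 to 434 CPM with a median of 284, and the starchy endosperm from 112 to 221 CPM with a median of 160.4, so that the ranges overlapped. Its log2 fold change of 0.79 (SE 0.27, edgeR adjusted p = 0.0259) lost the call without R1-sc aleurone replicate 2, r1-m3 aleurone replicate 1 or r1-m3 aleurone replicate 2, with adjusted p of 0.0532 to 0.122. At the low end, rps13 had 108 counts over the 8 aleurone libraries and 4 counts over the 9 starchy endosperm libraries, 7 of which were at 0. The fitted log2 fold change of rps13 was 4.75 (SE 1.53, edgeR adjusted p = 0.0188), a value that depends on the prior count added in the fit. Not called by edgeR was rps4, with 21.3 ± 10.8 CPM in the aleurone and 7.08 ± 4.18 CPM in the starchy endosperm (log2 fold change 1.46, SE 0.78, edgeR adjusted p = 0.152, permutation adjusted p = 0.0024). The 2 tests thus differed for rps4. In rps2A the levels were 2.84 ± 1.81 CPM in the aleurone and 2.56 ± 1.49 CPM in the starchy endosperm (log2 fold change 0.17, SE 1.21).

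Of the 9 ribosomal protein genes tested, rps2B alone was called lower in the aleurone. In the aleurone it stood at 15.9, 6.56 and 17.5 CPM in R1-sc, at 11.5 and 15.6 CPM in r1-m3 and at 22.6, 29.5 and 15.1 CPM in R1-g. In the starchy endosperm it stood at 66.3, 38.6 and 117 CPM in R1-sc, at 51.5, 25.0 and 26.5 CPM in r1-m3 and at 29.5, 47.5 and 45.5 CPM in R1-g. The ranges met only at R1-g aleurone replicate 2, which at 29.5 CPM lay above r1-m3 starchy endosperm replicates 2 and 3. On the log2 scale the difference was -1.56 (SE 0.56, edgeR adjusted p = 0.0314, permutation adjusted p = 0.0024). The edgeR call was lost when any of 7 single libraries was left out, with log2 fold changes of -1.64 to -1.39 and adjusted p of 0.0502 to 0.0926. It was also lost with the replicate number as a block (0.0599), with DESeq2 size factors (0.0523) and without the filter on low counts (0.103). Next to it and overlapping it in the annotation lies orf261, a pseudogene, which was named after its values were seen as one of the 3 members called lower. Its levels in the aleurone were 2.40, 3.53 and 1.18 CPM in R1-sc, 0.120 and 1.36 CPM in r1-m3, and 1.64, 0.855 and 0 CPM in R1-g. Starchy endosperm values were 27.0, 25.1 and 17.8 CPM in R1-sc, 7.51, 12.4 and 7.23 CPM in r1-m3, and 7.05, 8.46 and 16.3 CPM in R1-g. All aleurone libraries lay below all starchy endosperm libraries (log2 fold change -3.52, SE 1.19, edgeR adjusted p = 0.0226). Without r1-m3 aleurone replicate 1 or 2 the adjusted p was 0.0892 and 0.0512. Reads that fell on more than 1 feature were tallied apart as ambiguous, at 2.38% to 3.63% of the table totals per library. Counts on rps2B and orf261 therefore come from separate reads, but reads in their shared stretch may be missing from both. How many were lost there is unknown, as is the strand mode, and whether the 2 differences are independent was not tested. The same limit applies to the 25 members that overlap another feature, rpl16 and rps3 among them.

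The large subunit is represented by rpl16, which was higher in the aleurone. Its aleurone levels were 266, 72.7 and 50.8 CPM in R1-sc, 60.6 and 41.4 CPM in r1-m3 and 128, 51.8 and 153 CPM in R1-g. Its starchy endosperm levels were 11.4, 12.7 and 24.0 CPM in R1-sc, 17.5, 16.9 and 17.3 CPM in r1-m3 and 9.20, 12.4 and 30.3 CPM in R1-g. The compartments did not overlap, with the lowest aleurone library at 41.4 CPM above the highest starchy endosperm library at 30.3 CPM. The log2 fold change was 2.42 (SE 0.49, edgeR adjusted p = 0.000459). The annotated spans of rpl16 and rps3 overlap, and the log2 ratio of their counts within a library ran from -1.35 to 2.24 in the aleurone and from -1.08 to 1.76 in the starchy endosperm, with medians of 0.27 and 0.23 in the same order. The ratio therefore did not separate the compartments.

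The maturase and the respiratory genes among the members did not pass the edgeR test with 17 libraries. For mat-r, which in plants acts in splicing of mitochondrial introns, the aleurone ranged from 194 to 795 CPM (median 439) and the starchy endosperm from 196 to 469 CPM (median 335). The starchy endosperm values lay within the range of the aleurone (log2 fold change 0.49, SE 0.27, edgeR adjusted p = 0.167). In cox2, a subunit of cytochrome c oxidase, levels averaged 153 ± 44.8 CPM in the aleurone and 133 ± 52.9 CPM in the starchy endosperm (log2 fold change 0.27, SE 0.31, edgeR adjusted p = 0.555). For atp6, a membrane subunit of the ATP synthase, the means were 101 ± 17.9 CPM in the aleurone and 58.8 ± 33.0 CPM in the starchy endosperm (log2 fold change 0.92, SE 0.37). Its edgeR adjusted p was 0.0514, just over the threshold, and its permutation adjusted p was 0.00594. The outcome for atp6 changed in 6 of 26 settings. It was called with all 18 libraries (edgeR adjusted p = 0.0367) and with DESeq2 (adjusted p = 0.000134). With scaling to the 17 features left out by the rule it was not called (edgeR adjusted p = 0.927). The third, nad6 of complex I, was at 2.98 ± 3.99 CPM in the aleurone and 1.97 ± 1.24 CPM in the starchy endosperm. The 17 mitochondrial genes left out by the rule, by comparison, had a median log2 fold change of 1.12. Of them, 11 were called higher and 0 lower, against 21.9% and 13.7% of all features in the same order. Among those were atp1-a1 at 2.08, ccmB at 2.38 and cox1 at 0.63 on the log2 scale.

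**Figure D3:**
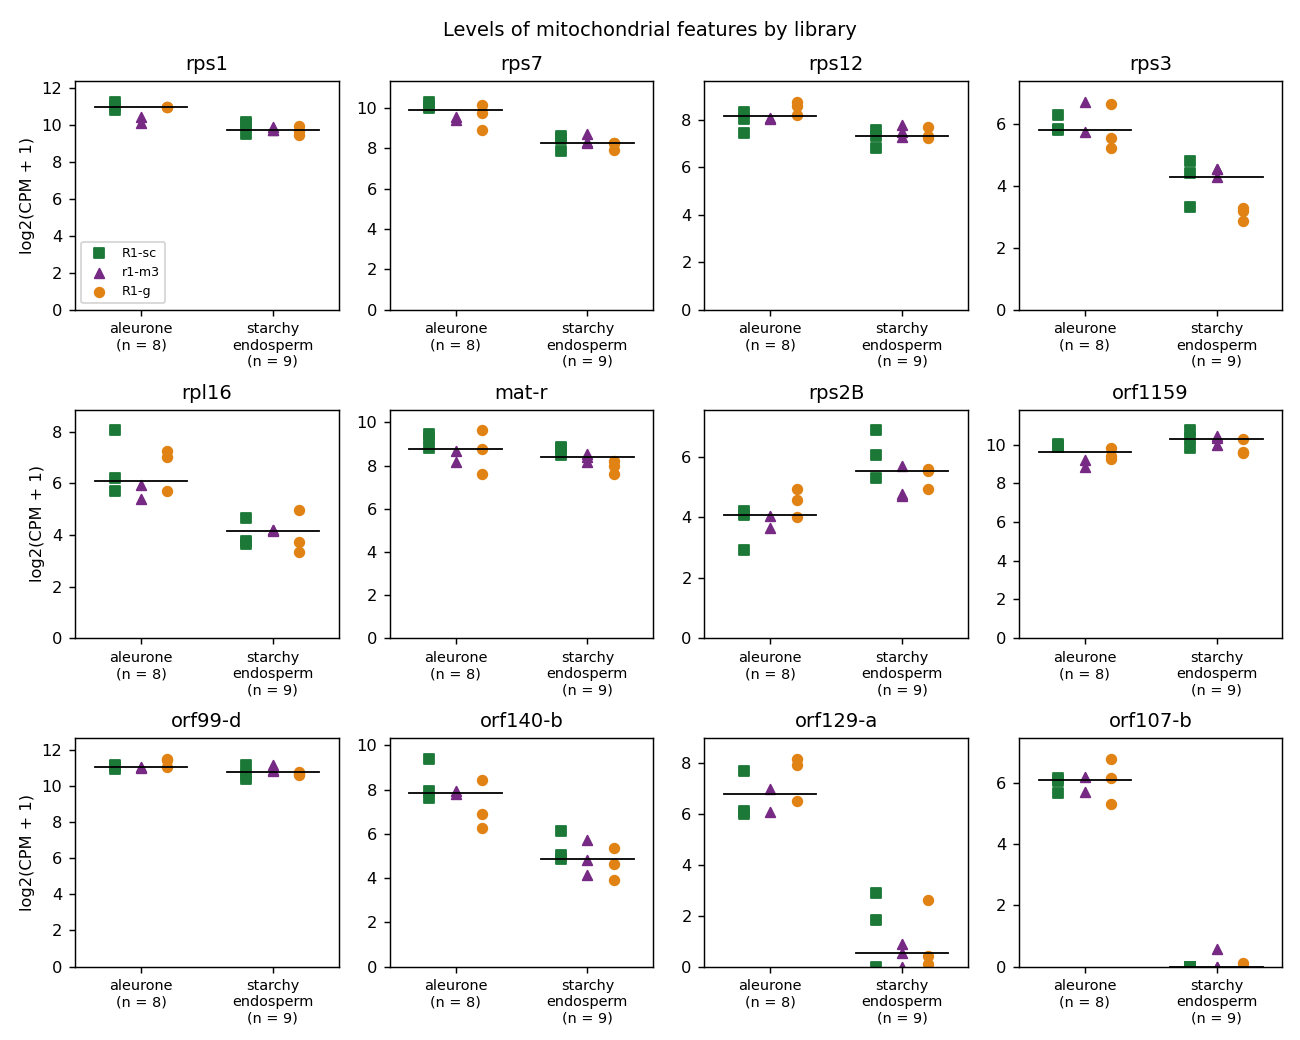
Levels of 12 members as log2(CPM + 1), 1 panel per member; each point is a library, shapes and colours mark the genotype, and the line is the compartment median (8 aleurone and 9 starchy endosperm libraries). The compartments are apart in rps7, rps3, rpl16, orf140-b, orf129-a and orf107-b and overlap in the other panels.

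Plastid-derived copies lay at low levels. Together the 8 took 0.0146 ± 0.00448% of feature counts in the aleurone, against 0.00408 ± 0.00183% in the starchy endosperm. Called higher in the aleurone were rpl2-ct, rps19-ct and orf100-b-ct of the 8, and 0 were called lower, against 21.9% of all features higher and 13.7% lower. Of those called, rps19-ct and orf100-b-ct entered through aleurone libraries alone, so these calls support no statement on plastid-derived copies as a kind. The copy rpl2-ct averaged 18.5 ± 12.0 CPM in the aleurone and 3.16 ± 2.39 CPM in the starchy endosperm (log2 fold change 2.77, SE 0.91, edgeR adjusted p = 0.0194). Its call was lost without r1-m3 aleurone replicate 2 (adjusted p = 0.11), with scaling to the 17 mitochondrial features left out by the rule (1.94, adjusted p = 0.11) and without the filter on low counts (adjusted p = 0.0602). The call of orf100-b-ct (4.80 on the log2 scale, edgeR adjusted p = 0.0367) was lost in 11 of the fits that left out a library, with adjusted p of 0.0543 to 0.0824, and 2 more such fits held no information on it. For rps19-ct, 153 counts in the aleurone stood against 0 in the starchy endosperm, which is at least 30.0-fold higher when 3 counts are taken for the starchy endosperm libraries together. A bound of this kind covers counting error only, since the amplified reads carry no molecular identifiers. The other ribosomal copies, rps7-ct at 1.04 ± 0.811 CPM in the aleurone and 0.742 ± 0.720 CPM in the starchy endosperm, and rpl23-ct at 2.51 ± 3.26 CPM and 0.617 ± 0.824 CPM in the same order, did not pass the test. The most abundant copy, rbcL-ct of the large subunit of Rubisco, averaged 65.9 CPM in the aleurone, against 45.4 CPM in the starchy endosperm (edgeR adjusted p = 0.382). One copy, orf134-a-ct, had all aleurone libraries (0.0445 to 0.905 CPM) below all starchy endosperm libraries (0.946 to 4.95 CPM), with an edgeR adjusted p of 0.131 and a permutation adjusted p of 0.0024. It was named after its values were seen. Reads that match both a copy and the plastid genome would have been dropped as aligning to several places, so the levels of these copies are uncertain.

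The reading frames showed the widest range of differences. Of 80 tested, 33 were called higher in the aleurone, 2 were called lower (orf1159 and orf261) and 45 did not pass the test. Over all features, 21.9% were called higher and 13.7% lower. The median log2 fold change of the 80 frames was 2.82. Most of the 25 members that entered through aleurone libraries alone are reading frames, so the rule bears on these figures. The frames orf107-b, orf129-a and orf140-b were the members called in each of the 3 genotypes. No function is given for them in the annotation.

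The frame orf107-b was present in every aleurone library and close to absent from the starchy endosperm. In the aleurone it stood at 66.1, 49.8 and 69.9 CPM in R1-sc, at 51.4 and 72.2 CPM in r1-m3 and at 109, 70.6 and 39.0 CPM in R1-g. Of the 9 starchy endosperm libraries, 7 had 0 counts, while r1-m3 replicate 2 and R1-g replicate 2 stood at 0.492 and 0.0806 CPM. The counts summed to 11504 in the aleurone, against 7 in the starchy endosperm. In R1-sc, where all starchy endosperm libraries were at 0, the aleurone was at least 624-fold higher, with 3 counts taken for that group. The fitted log2 fold change over the genotypes was 10.82 (SE 1.07, edgeR adjusted p = 3.64e-08), a value that depends on the prior count added in the fit. It is one of the 25 members that entered through aleurone libraries alone, as are orf100-a, orf128, orf135, orf149-b, orf163, orf165, orf100-b-ct, rps13 and rps19-ct. Their p-values describe the difference and support nothing further.

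Levels of orf129-a in the aleurone were 68.0, 62.3 and 200.2 CPM in R1-sc, 66.7 and 125 CPM in r1-m3 and 89.5, 283 and 237 CPM in R1-g. In the starchy endosperm they were 2.59, 0 and 6.42 CPM in R1-sc, 0.863, 0 and 0.434 CPM in r1-m3 and 0.344, 0.0806 and 5.12 CPM in R1-g. The lowest aleurone library lay above the highest starchy endosperm library. Its log2 fold change was 6.58 (SE 0.90, edgeR adjusted p = 7.09e-06).

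In orf140-b the aleurone levels were 246, 673 and 199 CPM in R1-sc, 219 and 244 CPM in r1-m3 and 77.0, 119 and 349 CPM in R1-g. The starchy endosperm levels were 28.1, 70.1 and 31.7 CPM in R1-sc, 16.7, 51.7 and 27.3 CPM in r1-m3 and 24.2, 13.9 and 40.5 CPM in R1-g. The groups did not overlap, but R1-g aleurone replicate 1 at 77.0 CPM came close to R1-sc starchy endosperm replicate 2 at 70.1 CPM. The fitted log2 difference was 2.92 (SE 0.42, edgeR adjusted p = 6.55e-06). Its neighbour on the map is mat-r, which did not pass the test.

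The longest of the frames named by the rule, orf1159, went the other way. Its aleurone levels were 987, 1039 and 935 CPM in R1-sc, 458 and 596 CPM in r1-m3 and 906, 691 and 609 CPM in R1-g. Its starchy endosperm levels were 1309, 909 and 1708 CPM in R1-sc, 1019, 1292 and 1381 CPM in r1-m3 and 756, 1249 and 784 CPM in R1-g. The compartments overlapped in R1-sc and in R1-g, and in r1-m3 both aleurone libraries were below all of the starchy endosperm. The log2 fold change was -0.66 (SE 0.22, edgeR adjusted p = 0.021, permutation adjusted p = 0.0237), and with library totals as the scaling it was 0.28 (adjusted p = 0.324), the opposite direction. Without R1-sc starchy endosperm replicate 3 or R1-g starchy endosperm replicate 2 the adjusted p was 0.0577 and 0.0561. The call was also lost with DESeq2 (0.0636), with its size factors in edgeR (0.0727) and without the filter on low counts (0.0797).

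Other frames with large differences were rare transcripts or varied between aleurone libraries. In orf163 the aleurone ranged from 0.0443 to 159.8 CPM (median 29.8), and 8 of 9 starchy endosperm libraries were at 0, the remaining library holding 8 counts (log2 fold change 10.53, SE 1.57, edgeR adjusted p = 2.49e-05). In orf128 the aleurone ranged from 0.134 to 40.1 CPM (median 7.44), and the starchy endosperm had 0 counts in 9 libraries, so that the aleurone was at least 425-fold higher. Every aleurone library of either frame held reads, and the fitted value of orf163 depends on the prior count added in the fit. The frame orf113-b ranged from 2.76 to 31.1 CPM in the aleurone and from 0 to 2.67 CPM in the starchy endosperm (log2 fold change 5.84, SE 1.42, edgeR adjusted p = 0.00277). For orf138-b, orf149-b and orf119-c the log2 fold changes were 6.78, 5.91 and 5.83, with edgeR adjusted p of 0.00437 to 0.0116. They had 0 counts in 5 to 7 of the 9 starchy endosperm libraries.

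Single libraries carried some of the largest values. The frame orf135 reached 68.9 CPM in R1-sc aleurone replicate 2, which held 94.6% of its summed aleurone level, and its median in the aleurone was 0.426 CPM. Its log2 fold change was 6.29 (edgeR adjusted p = 0.0148). Without R1-sc aleurone replicate 2 the value was 4.61 (adjusted p = 0.056). Without r1-m3 aleurone replicate 1 it was 3.96, in a fit that held no information on the contrast because a group of each compartment was then at 0 counts. The frames orf100-a (8.06 on the log2 scale) and orf165 (7.01) were at 0 counts in 4 and 5 of the 8 aleurone libraries. Leaving out R1-sc aleurone replicate 2 or R1-g aleurone replicate 1 gave 6.22 and 5.34 for orf100-a. For orf165 the value was 4.33 to 5.01 without R1-sc replicate 2, r1-m3 replicate 2 or R1-g replicate 1 of the aleurone. None of these 5 fits held information on the contrast, so they tested nothing. For orf145 (5.61, edgeR adjusted p = 0.0209) the value was 3.78 without r1-m3 aleurone replicate 2 (adjusted p = 0.12) and 4.62 without R1-g aleurone replicate 2 (adjusted p = 0.0544). In orf107-c, R1-g aleurone replicate 1 held 69.7% of the summed aleurone level. The log2 fold change of orf107-c, 2.46 (SE 0.71, edgeR adjusted p = 0.0088), was 1.54 without that library (adjusted p = 0.16) and 1.38 without r1-m3 aleurone replicate 2 (adjusted p = 0.152). Across the members, 8 had 0 counts in all 9 starchy endosperm libraries, as did 7.84% of all features tested, and none (0 of 104) had 0 counts in all 8 aleurone libraries, as did 2.87% of all features. The rule, which drew 25 members through aleurone libraries alone, bears on both counts.

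Among abundant frames, orf99-d, orf105-b and orf179 did not pass the test. In orf99-d, the highest of all members, the aleurone ranged from 1969 to 2895 CPM (median 2146) and the starchy endosperm from 1310.5 to 2295 CPM (median 1726). The ranges overlapped, and the log2 fold change of 0.35 (SE 0.19) had an edgeR adjusted p of 0.155 and a permutation adjusted p of 0.0367. For orf105-b the means were 146 ± 49.8 CPM in the aleurone and 130.1 ± 43.6 CPM in the starchy endosperm (log2 fold change 0.18, SE 0.32, edgeR adjusted p = 0.741). In orf179 they were 121 ± 76.6 CPM and 62.3 ± 19.0 CPM in the same order (log2 fold change 0.84, SE 0.40, edgeR adjusted p = 0.105).

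Libraries of the compartments did not overlap at all in 13 members with the aleurone higher, of which 11 were called, and in 2 with the aleurone lower. Over all features tested, all aleurone libraries lay above all starchy endosperm libraries in 4.95% and below in 4.66%. Besides rps3, rpl16, rps7, orf107-b, orf129-a, orf140-b, orf128 and orf113-b, the 13 were orf107-d, orf417, orf193-a1, orf193-a2 and orfX. In orf107-d the aleurone ranged from 49.3 to 183 CPM and the starchy endosperm from 2.14 to 27.4 CPM (log2 fold change 3.22, SE 0.52, edgeR adjusted p = 3.9e-05). In orfX, which is known in plants as a component of a protein export pathway, the aleurone ranged from 10.4 to 26.6 CPM and the starchy endosperm from 1.33 to 8.37 CPM, with an edgeR adjusted p of 0.0805, or 0.0470 with all 18 libraries. For orf193-a1 the edgeR adjusted p was 0.0573, or 0.0276 with all 18 libraries. The call of orf193-a2 (1.51, edgeR adjusted p = 0.0313) was lost in 9 of the fits that left out a library. In those fits its adjusted p was 0.0506 to 0.116. The frames orf193-a1 and orf193-a2 follow the copies atp1-a1 and atp1-a2 and carry paired names, so that reads shared between copies would have been dropped as aligning to several places.

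Within single genotypes fewer members were called, and all of the calls were higher in the aleurone. In R1-sc, 9 members were called higher and 0 lower, against 6.34% and 4.74% of all features. In r1-m3, with 2 aleurone libraries, 4 were called higher and 0 lower, against 3.24% and 1.69% of all features, and 7 higher and 1 lower when replicate 3 was kept. In R1-g, 13 were called higher and 0 lower, against 3.82% and 4.05% of all features. These counts rest on few libraries. In R1-sc the number was 5 without starchy endosperm replicate 1 or 2, and in r1-m3 it was 2 without either aleurone replicate or without starchy endosperm replicate 1 or 3. In R1-g it was 8 without aleurone replicate 1, and 5, 6 and 5 without starchy endosperm replicates 1, 2 and 3. Called in 2 genotypes were orf107-d, orf128, orf163, rpl16, rps1 and rps7, and called in 1 were orf107-c, orf113-b, orf444, orf734 and rps3. Every member called in a genotype was also called in the mean over genotypes, and 31 members were called in the mean only. For rps1 the log2 fold change was 1.11 in R1-sc, 0.49 in r1-m3 and 1.27 in R1-g, and for rps7 it was 1.79 in R1-sc, 1.02 in r1-m3 and 1.56 in R1-g. The difference between genotypes was tested by interaction terms.

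No member (0 of 101) was called between genotypes by edgeR. In the aleurone, edgeR called 0 of 101 members between R1-sc and R1-g, 0 between r1-m3 and R1-g and 0 between r1-m3 and R1-sc, against 0.3%, 0.216% and 0.0777% of all features. At an unadjusted p under 0.05 there were 2, 3 and 1 members, and DESeq2 called 1, 0 and 0 members, against 6.69%, 3.33% and 3.73% of all features. In the starchy endosperm, edgeR called 0 of 101 in each of the same 3 comparisons, against 0.0277%, 0.0166% and 0.0222% of all features, with 8, 6 and 7 members at an unadjusted p under 0.05 and 3, 1 and 1 called by DESeq2, against 2.13%, 2.17% and 3.21% of all features by that tool. For 11 to 13 of the 101 members the starchy endosperm groups compared were both at 0 counts, so nothing could be tested there. In the interactions of compartment and genotype, edgeR called 0 members between R1-sc and R1-g, 0 between r1-m3 and R1-g and 0 between r1-m3 and R1-sc, against 0.122%, 0.0832% and 0.00555% of all features. The counts at an unadjusted p under 0.05 were 7, 3 and 3, and DESeq2 called 3, 1 and 0, against 4.48%, 3% and 3.82% of all features. In these interactions 13, 12 and 12 of the 101 members held no information in edgeR, so nothing could be tested for them. A p that misses the threshold does not show that the genotypes are alike in these features.

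The DESeq2 calls between genotypes came from the 5 frames orf734, orf138-a, orf113-b, orf160-a and orf444, of which orf138-a and orf160-a were named after their values were seen. Starchy endosperm levels of orf734 stood at 0, 1.80 and 13.8 CPM in R1-sc, at 0.432, 7.14 and 16.5 CPM in r1-m3 and at 0, 0.0806 and 0 CPM in R1-g. In the aleurone the same frame was at 10.99, 135 and 31.9 CPM in R1-sc, at 23.4 and 22.3 CPM in r1-m3 and at 46.0, 12.1 and 103 CPM in R1-g. At least 1 starchy endosperm library was at or near 0 in every genotype. In DESeq2 its starchy endosperm difference had an adjusted p of 0.00454 between R1-sc and R1-g and of 0.0012 between r1-m3 and R1-g, while edgeR gave adjusted p of 0.516 and 0.454. The frame orf444 stood at 0.192, 0 and 0 CPM in R1-sc starchy endosperm, at 0.949, 10.9 and 2.53 CPM in r1-m3 starchy endosperm and at 0.946, 1.21 and 0.0948 CPM in R1-g starchy endosperm. Between r1-m3 and R1-sc its DESeq2 adjusted p was 0.00392 and its edgeR adjusted p 0.526. For orf138-a, the starchy endosperm libraries held 537 counts in R1-sc, against 24 in R1-g (DESeq2 adjusted p = 1.58e-05, edgeR adjusted p = 0.845). For orf113-b they held 38 counts in R1-sc, against 0 in R1-g (DESeq2 adjusted p = 0.0292, edgeR adjusted p = 0.845). The call in the aleurone was orf160-a, with 666 counts in R1-sc aleurone, against 4 in R1-g aleurone (DESeq2 adjusted p = 0.0277, edgeR adjusted p = 0.311).

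The scaling of the libraries moved the counts. TMM factors were 1.20 to 1.69 in the aleurone, against 0.68 to 0.84 in the starchy endosperm, and with library totals in their place the median log2 fold change of all features was 1.5. On that scale 68 members were called higher and 0 lower, against 32.1% of all features higher and 9.25% lower, and the members' median was 3.39. When libraries were scaled to their summed counts on the 17 mitochondrial genes left out by the rule, the median of all features was -0.18. Then 25 members were called higher and 4 lower, against 16.4% of all features higher and 20.2% lower, with a median of 1.65 over the members. Among those called higher are members that entered through aleurone libraries alone, orf107-b and rps13 for example. Their calls under any scaling therefore describe the members and support nothing further. All 25 were also called higher under TMM and with library totals. They include orf107-b (10.24), orf129-a (5.80), orf140-b (2.05), rpl16 (1.64), rps7 (0.67) and rps13 on the log2 scale relative to the other mitochondrial genes. On the same scale rps1 was at 0.15 (adjusted p = 0.626), rps3 at 1.36 (adjusted p = 0.0538) and rps12 at -0.01 (adjusted p = 1.0), none of them called. Lower on both scales were orf1159, orf261 and rps2B, and rps2B kept its negative sign with library totals at -0.60 (adjusted p = 0.454).

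**Figure D4:**
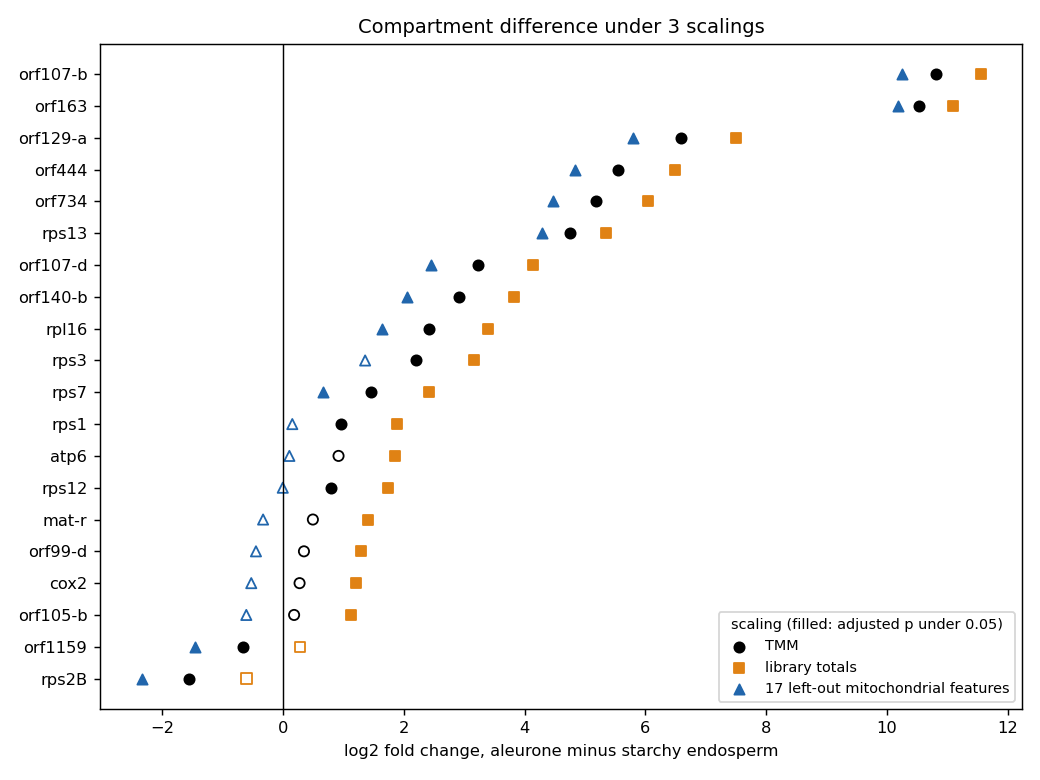
Log2 fold change, aleurone minus starchy endosperm, of 20 members under 3 scalings; filled symbols have an adjusted p under 0.05. Library totals move members to the right and the 17 left-out mitochondrial genes move them to the left, and orf107-b stays far above 0 (10.24 to 11.55), rps12 lies between -0.01 and 1.73, and orf1159 crosses 0.

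Neighbours on the map were compared within libraries. The order of features was taken from the RefSeq mitochondrial record of another assembly, and the pairs below were chosen after their values were seen. Within a library, the log2 ratio of counts of rps12 to its neighbour nad3 ran from 2.32 to 6.18 in the aleurone and from 3.41 to 6.01 in the starchy endosperm. For rps1 and its neighbour ccmFN the ratio ran from 1.35 to 2.40 in the aleurone and from 1.33 to 2.06 in the starchy endosperm. Both ratios overlapped between compartments. The ratio of orf193-a1 to the adjacent atp1-a1 was apart, at -2.52 to -1.55 in the aleurone, against -1.51 to -0.67 in the starchy endosperm, so that this frame was lower relative to atp1-a1 in every aleurone library. Reads shared with the copies orf193-a2 and atp1-a2 would have been dropped, so this ratio rests on the reads that were kept. For orf147-b and its neighbour cox1 the ratio overlapped, at -5.04 to -3.14 in the aleurone, against -5.37 to -3.81 in the starchy endosperm. These ratios need no scaling of the libraries.

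Large differences also stood side by side in 2 runs. Many members were called higher along the map, and whether calls lie together more than others was not tested. The consecutive frames orf444, orf387 and orf734 had log2 fold changes of 5.55, 3.36 and 5.19, all called. The nearest tested features on either side, orf115-a1 (1.30) and orf248 (2.32), were not called. The run of orf107-b, orf99-f, orf129-a and, after a transfer RNA, orf100-c had values of 10.82, 3.09, 6.58 and 4.31. Of these, orf99-f was not called (edgeR adjusted p = 0.0669, or 0.0407 with all 18 libraries), and orf107-b entered through aleurone libraries alone. Beside that run, orf117-d (4.22) was not called and orf113-b (5.84) was called. Within the aleurone the ratio of orf129-a to orf99-f still ran from 0.38 to 5.90 on the log2 scale between libraries, so the levels of these neighbours did not keep a fixed proportion.

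**Figure D5:**
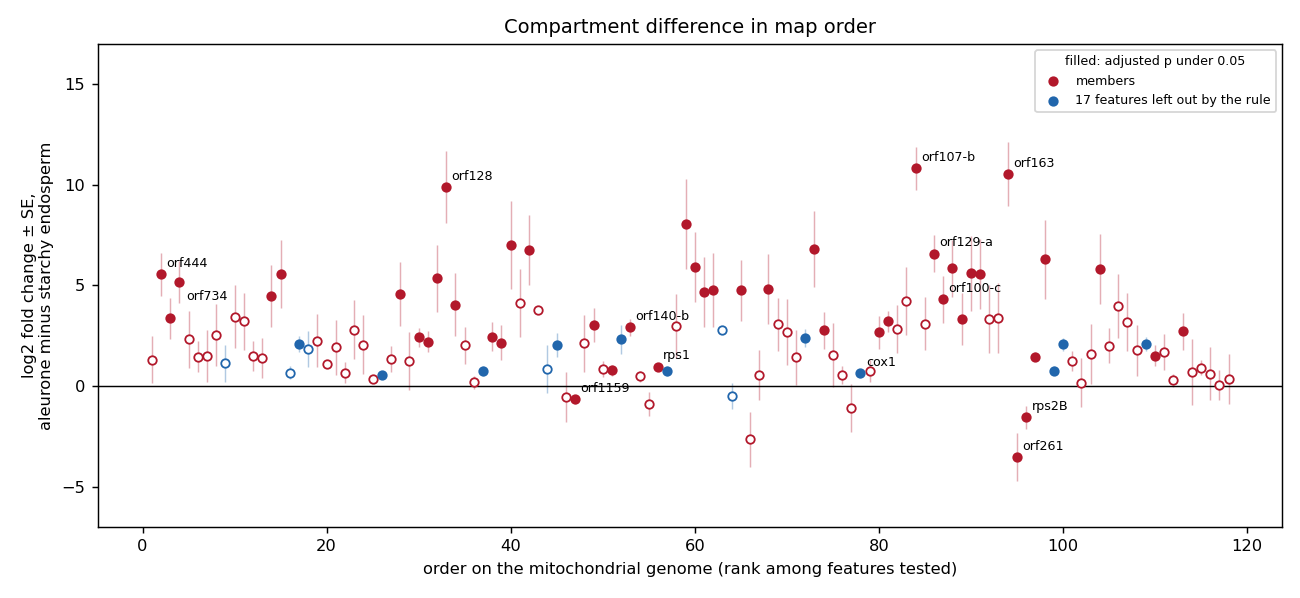
Log2 fold change ± SE, aleurone minus starchy endosperm, of the 101 members tested and the 17 mitochondrial features left out by the rule, in their order on the mitochondrial genome; filled points have an adjusted p under 0.05, and 2 members and 1 other feature without information carry no error bar. Called members are spread along the map, and rps2B and orf261 stand next to each other below 0.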

How the data were processed

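The deposited files hold raw read counts per feature, 1 table per library, with 46430 features and 5 totals of unassigned reads. The build B73 RefGen_v4 and the tools HTSeq 0.11.2, Trimmomatic 0.39, HISAT2, FastQC, DESeq2 and SAMtools are named in the submitters' processing notes. The strand setting is not given in the sources used here. Per the labels' protocols, RNA came from the PicoPure kit, and 5 ng of it was amplified with Ovation RNA-Seq System V2, before paired-end libraries were made with NEBNext Ultra II. Symbols, lengths and map order came from the RefSeq table of assembly Zm-B73-REFERENCE-NAM-5.0, by locus tag (175 of 175 mitochondrial features matched), and lengths are of that annotation.

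Counts were fitted with edgeR 4.0.16 (R 4.3.3). A low-count filter by group (filterByExpr, 6 groups) kept 18028 features and 101 of 104 members (not orf99-a1, orf126-b1 and orf126-b2), with TMM scaling, 1 fit of group means over 17 libraries, robust quasi-likelihood F tests and Benjamini-Hochberg adjustment over all features within a contrast (threshold 0.05). An SE is the size of the log2 fold change divided by the square root of F. Exact permutations used log2(CPM + 1) and were adjusted over all features, where adjustment over the members alone had been planned. Bounds against 0 counts take 3 counts over the group. Alternatives were DESeq2 1.42.0, other scalings, no filter, all 18 libraries, a replicate block, fits to the groups compared only, each library left out in turn, and an additive fit added after seeing the data. Scripts were tested on simulated data.

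The members and lists were chosen with earlier results of these data known. Named were the 7 members that the rule lists and all other rps, rpl and mat-r members. The 10 called members with the largest changes at 1 CPM or more were added, with the 5 most abundant of the rest. Any other member called within a genotype or between genotypes was named too. Further members named in the text, orf387, orf99-f, orf100-c, orf417, orf193-a1, orf193-a2, orfX, nad6, rbcL-ct and orf100-b-ct among them, lie outside these criteria. They were not fixed in advance.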

Additional observations from a re-analysis of the deposited data

Results flagged for a closer look

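For orf105-b, one of the more abundant reading frames, the compartments were apart in opposite directions in 2 genotypes, by a very narrow margin in r1-m3. Neither difference passed the test (edgeR adjusted p = 0.692 in r1-m3 and 0.287 in R1-g). In r1-m3 the aleurone libraries stood at 101 and 141.86 CPM and the starchy endosperm libraries at 181, 183 and 141.88 CPM, with both aleurone libraries lower (log2 fold change, aleurone minus starchy endosperm, -0.47). In R1-sc the aleurone libraries stood at 153, 215 and 70.6 CPM and the starchy endosperm libraries at 118, 108 and 184 CPM, and they overlapped (log2 fold change 0.10). In R1-g its aleurone libraries stood at 191, 183 and 108 CPM and its starchy endosperm libraries at 86.3, 77.7 and 91.4 CPM, with every aleurone library higher (log2 fold change 0.92). The difference between r1-m3 and R1-g, -1.39 on the log2 scale, did not pass the test of the interaction (edgeR quasi-likelihood test across all features, adjusted p = 0.739).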

How the results depend on the processing

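For the mean over genotypes, 45 members were called in all. With library totals it was 68, with scaling to the 17 mitochondrial genes left out 29, and leaving out each library in turn gave 29 to 43, with 23 members called in every one of those fits. Over all features, library totals called 32.1% higher and 9.25% lower, and the mitochondrial scaling 16.4% and 20.2% in the same order. Counts under the other settings stand here without such a share, so they describe the settings and not the members. DESeq2 gave 55, and no filter on low counts gave 32, losing 7 of the called members named (orf1159, rps12, rps13, rpl2-ct, rps2B, orf100-b-ct and orf193-a2, adjusted p 0.0602 to 0.151). In R1-sc (9 called) the count was 28 with DESeq2 and 5 to 9 with a library left out. In r1-m3 (4 called) it was 11 with library totals, 14 with DESeq2, 8 with all 18 libraries, and 2 to 4 with a library left out. In R1-g (13 called) it was 25 with library totals, 8 with the mitochondrial scaling, 36 with DESeq2, 7 with the libraries of R1-g alone, and 5 to 14 with a library left out. Between genotypes, DESeq2 called 1 member between R1-sc and R1-g in the aleurone, 4 in the interactions, and 3, 1 and 1 in the starchy endosperm comparisons, where edgeR called 0. Without a filter on low counts edgeR called 1 member each for R1-sc and for r1-m3 against R1-g in the starchy endosperm. The cause of these shifts was not tested, except that the scalings move all features together. Of the called members named, orf1159 reversed with library totals (0.28) and rps12 with the mitochondrial scaling (-0.0056). Among the members followed by name through the settings, and not over all members, that scaling also turned 8 that were not called negative. They were mat-r, orf99-d, cox2, nad6, orf105-b, orf179, rps2A and rps7-ct (-0.63 to -0.01). With a library left out, rps2A and rpl23-ct, also not called, turned negative. The additive fit, chosen after seeing the data, called 39 higher and 3 lower, and 39 of the 45 calls of the main design were among them. Same-numbered libraries of a genotype did not deviate together (correlations of deviations from the group means -0.0013 to 0.021 over 8 pairs). Correlations near 0 cannot show whether libraries of the same number came from the same plants or kernels, so a pairing by number remains unknown. With the number as a replicate block, 34 members were called in the mean, 9 in R1-sc, 4 within r1-m3 and 9 in R1-g. Fits to the compared groups alone were not run for the mean over genotypes, which uses all groups. Low counts limit the members under 10 CPM. Fitted values depend on the prior count wherever a group is at or near 0 counts, also in more abundant members such as orf107-b and orf163.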
